A study of Sus scrofa with 4 samples.

Results

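The interstitial stromal cells of the 90-day pig testis were 2477 barcodes of 12675 that passed the cell filter in that library, and of 69602 barcodes in the 4 libraries of the series. They were chosen by measured values: a barcode had at least 1000 UMIs (unique molecular identifiers, each standing for 1 captured RNA molecule), 500 or more detected genes and no more than 15% of its UMIs from the 13 mitochondrial genes, and at least 3 of 8 stromal genes (MFAP5, SEMA3G, IGFBP6, COL14A1, HTRA3, EBF1, DCN and COL1A1) were detected. Barcodes with 0.5% or more of their UMIs from ACTA2 and MYH11 together, or from INSL3 and CYP17A1 together, were left out, and so were barcodes with more than 1 of CD93, CLDN5 and VWF. The study profiled suspensions of whole testis of Sus scrofa at 7, 30, 60 and 90 days of age by droplet sequencing of RNA 3′ ends. Each age was 1 library, with no genotype, breed or treatment given and no statement of how many animals it came from. Age and library therefore cannot be told apart, no p-value can be given, and every interval below is an exact 95% interval for the error of counting alone. The same gate was set on the 3 younger libraries, where it held 3214 cells at 7 days, 4235 at 30 days and 3289 at 60 days.

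The interstitium of the testis lies between the seminiferous tubules and holds Leydig cells, vessels, macrophages and fibroblast-like stromal cells. The stromal cells make collagen, proteoglycans and elastic fibres, and they release growth factors and binding proteins that act on neighbouring cells. In rodents, cells of this compartment include precursors of adult Leydig cells and of peritubular cells. As puberty sets in, germ cells in the tubules pass through meiosis and form spermatids, whose abundant transcripts include those of the proteins that pack sperm DNA.

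The 4 libraries held 45717373 to 96133720 counts, the 90-day library 64372068, and the gated cells at 90 days 8929869 with a median of 2369 UMIs per cell. Between 78 and 115 barcodes were shared by each pair of libraries, and 41 of the 2477 gated barcodes also occurred in a younger library. The 60-day library stood apart in doublet calls, with 28.8% of its cells called by Scrublet, a caller that simulates mixed droplets, against 6.80% at 90 days. The gate took 23.2%, 24.5%, 27.4% and 19.5% (18.9 to 20.2%) of the cells at 7, 30, 60 and 90 days. The labels name 86453 captured cells, against 69602 barcodes in the files.

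At 90 days 2786 cells passed the 3-gene minimum, and 211 of them were lost to the limit on ACTA2 and MYH11, 22 to that on INSL3 and CYP17A1 and 76 to that on the endothelial genes. Just inside the minimum, 449 cells with exactly 3 of the genes had a median of 0.597% of their UMIs from the 8 genes and a median depth of 2337 UMIs. Just outside it, 825 cells with exactly 2 had 0.0370% at a median depth of 7175 UMIs. The edge was less sharp at 7, 30 and 60 days. There 1525, 3243 and 3113 cells with exactly 2 had medians of 0.453%, 0.564% and 0.244%. Those with exactly 3 had 0.840%, 0.789% and 0.530%. The same gate thus left out more stroma-like cells in younger libraries, which limits the shares by age and the comparisons with younger cells. The 90-day cells carried more of the 8 genes than the younger ones did: 18.1% of them had exactly 3, against 48.0% at 7 days, 47.3% at 30 days and 52.5% at 60 days. This difference is a description, since the 8 genes chose the cells and several are markers given for the 90-day cells. The marker list given with the gate adds NPTX1, a neuronal pentraxin, to these genes.

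A deep cell can reach 3 genes with a UMI of each, so the gate was also read in its stricter part: the 2096 of 2477 cells (84.6%) with at least 0.5% of their UMIs from the 8 genes, called core cells below. This limit was set after the data were seen. The core held 56.9% of the counts of the gated cells at a median of 2245 UMIs per cell, and the other 381 cells had a median of 8632. The same limit kept 2696, 3522 and 2214 cells at 7, 30 and 60 days. Expression is given in CPM, counts per 1000000 of the summed counts of the cells named.

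The gate genes are described, not tested, because they chose the cells. COL1A1, a chain of type I collagen, stood at 3865 CPM in all gated cells and 6376 CPM in the core at 90 days. DCN, decorin, a proteoglycan that binds collagen fibrils, stood at 2839 and 4639.9 CPM. In the core at 7, 30, 60 and 90 days COL1A1 stood at 4733, 5767, 6042 and 6376 CPM and DCN at 4827, 5294, 5973 and 4639.9 CPM, so COL1A1 was highest at 90 days and DCN lowest. The other gate genes were highest at 90 days. MFAP5, a protein of microfibrils, stood at 4.39, 114, 23.9 and 355 CPM in the core at the 4 ages, and SEMA3G, a secreted semaphorin, at 4.58, 35.4, 19.8 and 294 CPM. IGFBP6, which binds IGF2, stood at 569, 1069.9, 1126 and 2197 CPM, COL14A1, a collagen that sits on fibrils, at 121, 189, 323 and 532 CPM, HTRA3, a serine protease, at 167, 136, 204 and 365 CPM and EBF1, a transcription factor, at 166, 293, 373 and 800.4 CPM. MFAP5 and SEMA3G were the lowest of the 8 at 7 days and differed the most between 7 and 90 days.

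Clustering of the 2477 cells on their own (Leiden, resolution 0.5) gave 9 subgroups. Subgroups 1, 2, 3 and 5 held 2023 cells (81.7% of the cells and 52.4% of the counts) and had the stromal marker list at 19557, 15259.7, 16087 and 25869.6 CPM in sum. Subgroups 4, 6, 8 and 9 held 396 cells (16.0% of the cells but 45.7% of the counts), and their leading genes were those of tubule cells. Subgroup 4 (221 cells, median 8819 UMIs) was led, among genes with a symbol, by UCHL1, TKTL1 and GFRA2, with the spermatogonia list at 1035 CPM against 307 CPM in subgroup 1. Subgroup 6 (111 cells, median 8634 UMIs) was led by SEPTIN14, ENPP5 and KIAA1217, with the Sertoli list at 22906 CPM against 3360 CPM. Subgroup 8 (52 cells) was led, among genes with a symbol, by ZBTB32 and IHO1, a protein of meiotic recombination. Subgroup 9 (12 cells) had PRM2 and TNP2, which pack the DNA of spermatids, among its 10 leading genes. Subgroup 7 (58 cells) was led, among genes with a symbol, by MS4A2, FCER1G and GNLY, genes of mast, myeloid and cytotoxic cells. They were detected in only 8.62%, 13.8% and 32.8% of its cells. This subgroup also had the highest sums of the T or NK list, 2239 CPM, and of the pericyte list, 1917 CPM. The leading genes of these 5 subgroups, which held the other 454 cells, thus went against the label interstitial stromal. The core did not leave them all out: it held 39, 20, 36, 17 and 1 cells of subgroups 4, 6, 7, 8 and 9. The stromal list had the highest sum of the 17 marker lists in subgroups 1, 2, 3 and 5, and also in subgroup 7 (8691 CPM). All 8 gate genes are among the 11 on that list, so the gate favours this rank. The 10 leading genes of subgroups 2 and 3 held 0 of its markers, and those of subgroup 3 held 1 myoid marker, ACTA2. Those of subgroup 1 held 2 stromal markers, 1 Sertoli marker (KRT18), 1 lymphatic endothelial marker (PDPN) and 1 mesothelial or rete marker (KRT8). The subgroups are therefore called by number and leading genes.

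**Figure D1:**
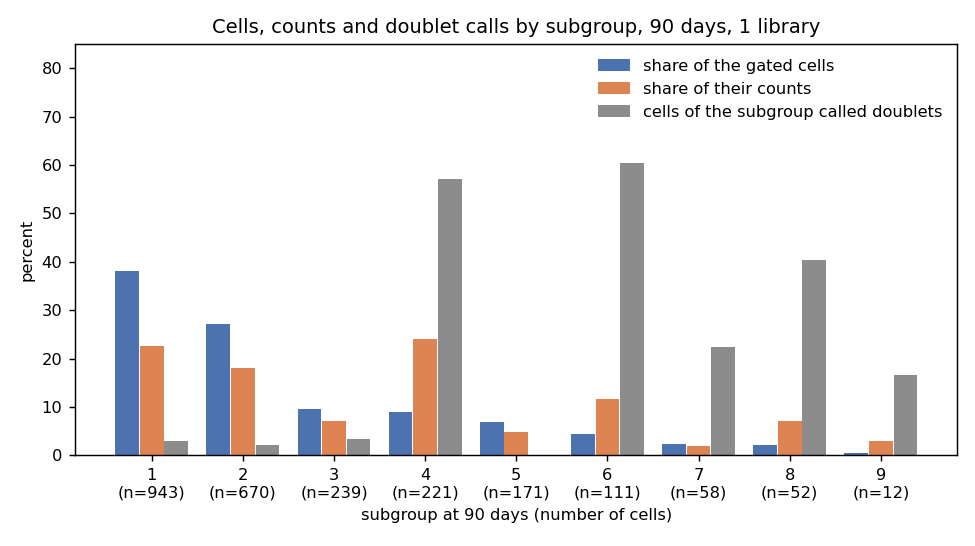
Bars give, for each of the 9 subgroups of the 90-day gated cells, its share of the 2477 cells, its share of their counts and the percentage of its cells called doublets by Scrublet. Subgroups 4, 6 and 8 hold few cells but many counts and have 40.4 to 60.4% of their cells called doublets, against 0 to 3.35% in subgroups 1, 2, 3 and 5.

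**Figure D2:**
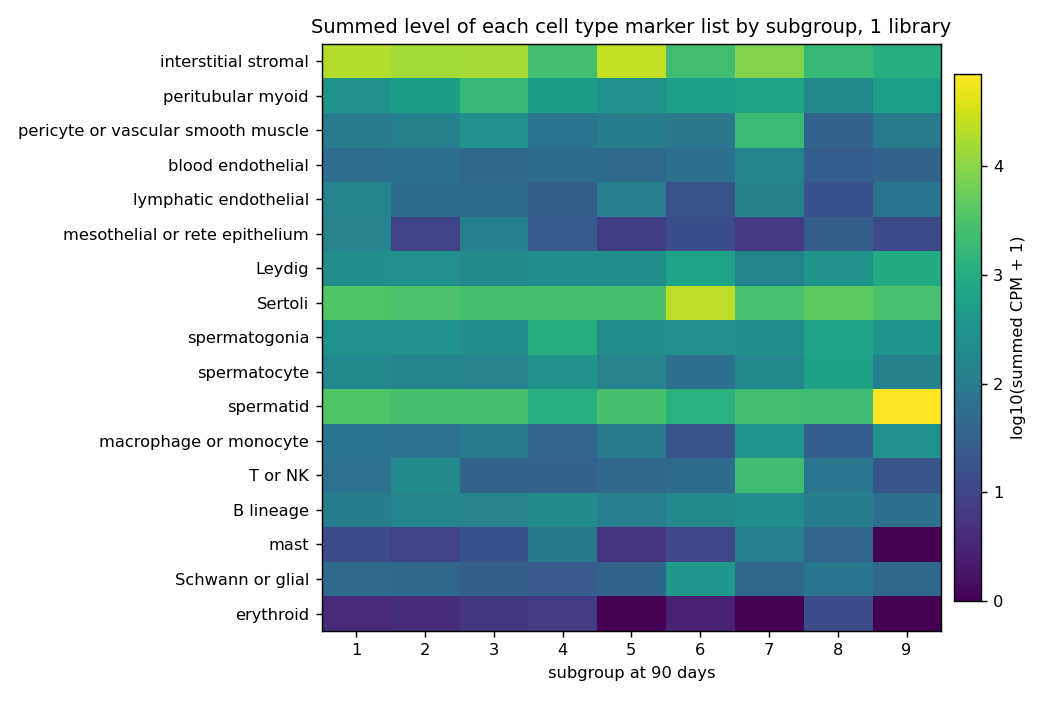
Colour gives the summed CPM of each of 17 cell type marker lists (rows) in each subgroup (columns), as log10 of CPM + 1. The stromal list is high in subgroups 1, 2, 3 and 5, the Sertoli list is highest in subgroup 6 and the spermatid list in subgroup 9, and the Sertoli and spermatid lists are above 1000 CPM in every subgroup.

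Doublet calls followed this split, with 2.97%, 2.09%, 3.35% and 0% of cells called in subgroups 1, 2, 3 and 5 and 57.0%, 60.4%, 40.4% and 16.7% in subgroups 4, 6, 8 and 9. The 8 gate genes summed to 16064 CPM in subgroups 1, 2, 3 and 5 together and to 1946 CPM in subgroups 4, 6, 8 and 9 together. The ratio of COL1A1 to DCN counts was 1.36 (1.34 to 1.38) in the former and 1.39 (1.32 to 1.46) in the latter, and the ratio of IGFBP6 to DCN was 0.469 (0.458 to 0.480) and 0.423 (0.393 to 0.455). Whether the stromal counts of subgroups 4, 6, 8 and 9 came from free RNA or from a second cell in the droplet was not tested.

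RNA of spermatids was found in all cell classes of the 90-day library. The 9 spermatid markers summed to 4343 CPM in the gated cells, 2980.3 CPM in the core, 2833 CPM in cells over the ACTA2 and MYH11 limit (the myoid gate, 911 cells), 1753 CPM in cells over the INSL3 and CYP17A1 limit (the Leydig gate, 345 cells) and 2524 CPM in cells with at least 2 of the endothelial genes (the endothelial gate, 739 cells). At least 3 of the markers were detected in 78.1% of core cells (median 2245 UMIs) and in 83.5% of cells of the endothelial gate (median 3478 UMIs). In the core of the younger libraries the same sum was 0.668, 0.328 and 2.45 CPM. The share of cells can rise with depth, so no order is read from it, and the summed CPM was higher in the core than in the endothelial gate. The source of this RNA was not tested, and a gene high at 90 days is described below with its level in the other cells of the library. The Sertoli list summed to 3441 CPM in the core and 9588 CPM in all cells outside the gate. The summed lists of blood endothelial (53.7 CPM), macrophage (79.4 CPM) and mast cells (14.4 CPM) were low in the core, and the Schwann cell markers CDH19 and FOXD3 were at 0.

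Subgroups 1, 2, 3 and 5 differed from each other in ligands, matrix genes and transcription factors. Their genes were used to form them, so these levels are a description. Subgroup 1 (943 cells) was the largest and was led, among genes with a symbol, by KRT18, SEMA3G, MPZL2, CCL11, NPTX1 and KRT8. SEMA3G stood at 559 CPM in subgroup 1 and at 47.7, 201 and 223 CPM in subgroups 2, 3 and 5. NPTX1 stood at 686 CPM against 53.9, 436 and 259 CPM, so subgroup 2 was the low one for both. KRT18, a keratin of simple epithelia, was detected in only 7.95% of the cells of subgroup 1 and KRT8 in 11.5%. KRT18 stood at 100.5 CPM against 0.620, 34.9 and 2.35 CPM, and its partner KRT8 at 134 CPM against 6.20, 122 and 4.70 CPM. HHIP, which binds hedgehog ligands and is itself a target of the pathway, stood at 1514 CPM in subgroup 1 and 1777 CPM in subgroup 5, against 351 and 444 CPM in subgroups 2 and 3. The mesothelial or rete epithelium list summed to 138 CPM in subgroup 1 and 125 CPM in subgroup 3, against 8.68 and 7.05 CPM in subgroups 2 and 5, and its part in the keratin levels was not tested. MEOX2, a homeobox factor, was also highest in subgroup 1, at 106 CPM.

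Subgroup 2 (670 cells) was led, among genes with a symbol, by CXCL14, PENK, SLIT2, RSPO3, SPON1 and C3. ENSSSCG00000038719, a feature without a symbol, had a larger ratio (406 CPM, against 10.7 CPM in the other gated cells). It was detected in only 2.84% of the subgroup's cells and stood at 197 CPM outside the core. PENK, the precursor of enkephalin peptides, stood at 4945 CPM, against 1573, 915 and 2438 CPM in subgroups 1, 3 and 5. RSPO3, which strengthens WNT signals, stood at 361 CPM against 122, 33.3 and 223 CPM, and SFRP1, a secreted WNT binder, at 1964 CPM against 693, 620.3 and 1364 CPM. LHX9, a transcription factor of the early gonad, stood at 758 CPM against 249, 203 and 494 CPM. These 4 genes were at their highest in subgroup 2 and at their lowest in subgroup 3. IGF1, a growth factor, was also highest there (1045 CPM, against 338 to 545 CPM in the others), as were CXCL12 (855 CPM), a chemokine, and C7 (89.3 CPM, against 2.49 CPM in subgroup 1), a late complement component.

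Subgroup 3 (239 cells) was led by COL15A1, HEYL, ACTA2, CYP26B1, GALP and IGFBP7. COL15A1, a basement membrane collagen, stood at 682 CPM against 95.5, 177 and 61.1 CPM in subgroups 1, 2 and 5, and HEYL, a target of Notch, at 273 CPM against 62.2, 68.2 and 30.6 CPM. ACTA2, smooth muscle actin, stood at 929.6 CPM although the gate limits it, against 111, 120.3 and 21.2 CPM. CYP26B1, which breaks down retinoic acid, stood at 122 CPM against 22.4, 26.7 and 2.35 CPM. All 4 were high in the myoid gate, at 476, 186, 8773 and 732 CPM, and the peritubular myoid list summed to 1801 CPM in subgroup 3, against 316, 522 and 306 CPM. LUM, lumican, a proteoglycan of collagen fibrils that is low in the myoid gate (299 CPM), was at its highest in subgroup 3 as well (2264 CPM, against 491 to 1282 CPM in the others).

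Subgroup 5 (171 cells) was led by CLEC3B, FN1, ECM1, MFAP5, CD248 and EMILIN2 and held genes known from fibroblasts around vessels in other organs. FN1, fibronectin, stood at 886 CPM against 167, 81.8 and 61.9 CPM in subgroups 1, 2 and 3. CD248, endosialin, stood at 524 CPM against 157, 71.3 and 69.8 CPM, and PI16, a marker of adventitial fibroblasts in mouse and human, at 536 CPM against 355, 56.4 and 116 CPM. Of the 16 elastic fibre genes, 11 had their highest level of the 4 subgroups in subgroup 5: FBN1, fibrillin, stood at 1779.8 CPM, MFAP4 at 1234 CPM, LTBP2 at 148 CPM and LOXL1, a cross-linking enzyme, at 399.7 CPM. FBN2 and EMILIN1 were lowest there, at 7.05 and 32.9 CPM. CLEC3B was higher still in the endothelial gate (1318 CPM, against 433 CPM in subgroup 5). At a lower resolution of 0.2, 4 clusters formed and 1 of them, of 2101 cells, took nearly all cells of subgroups 1, 2, 3 and 5, so the borders between these subgroups depend on the resolution. At a resolution of 1, 12 clusters formed, the largest piece of subgroup 1 held 30.8% of it, and 84.9%, 97.9% and 97.7% of subgroups 2, 3 and 5 stayed together.

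**Figure D3:**
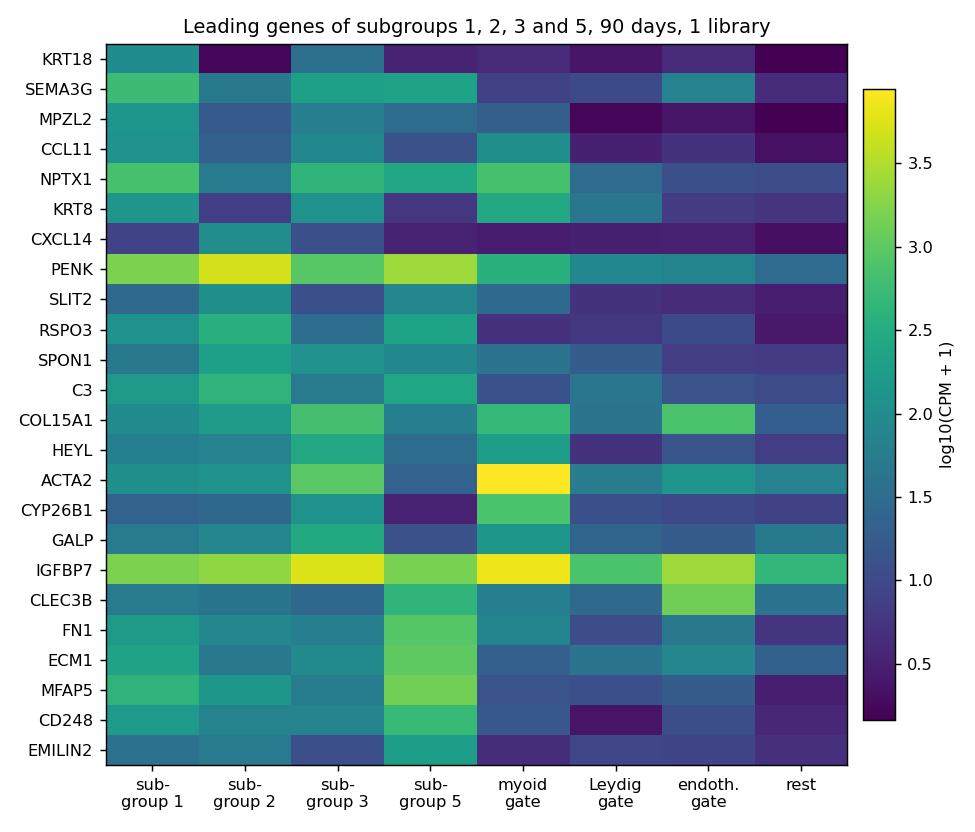
Colour gives the level, as log10 of CPM + 1, of the first 6 genes with a symbol that lead subgroups 1, 2, 3 and 5 (rows) in those subgroups, in the myoid, Leydig and endothelial gates and in the rest of the 90-day library (columns). PENK is highest in subgroup 2, SEMA3G and KRT18 in subgroup 1 and MFAP5 in subgroup 5, while ACTA2 and IGFBP7 are highest in the myoid gate.

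Among all genes at 90 days the core was set apart from the other cells of its library by collagens and secreted proteins, which is in part what the gate asked for. COL1A2, the partner chain of COL1A1, stood at 8615 CPM in the core and 228 CPM in all cells outside it, and COL3A1, type III collagen, at 4977 and 156 CPM. PTN, the growth factor pleiotrophin, stood at 2810.4 and 74.6 CPM and PENK at 2579 and 66.3 CPM, both among the 20 most abundant genes of the core. PI15, a peptidase inhibitor (428 and 7.61 CPM), SFRP4 (214 and 4.0 CPM), NRK, a kinase (199 and 4.02 CPM), and WFIKKN2, which binds myostatin-type ligands (150.0 and 3.36 CPM), had, with RSPO3, the largest ratios to the other cells among genes that are not in the gate. ADAMTS5, a protease of proteoglycans, LHX9 and HHIP followed. Within the library the myoid gate was the nearest class in several of these genes: PTN stood at 409 CPM there, PENK at 365 CPM and HHIP at 237 CPM, against 66.6, 82.7 and 29.4 CPM in the Leydig gate. NPTX1 was higher in the myoid gate (704 CPM) than in the core (374 CPM), so it is no marker of the stromal cells alone.

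For the comparison with younger cells, a gene was called higher or lower when its CPM ratio was at least 2 with an interval that excluded 1, over at least 25 counts in both ages together, gate genes set aside. A call describes the 2 libraries compared and is no test between ages. In all gated cells, 4221 of 17159 genes (24.6%) were called higher at 90 than at 7 days and 1564 (9.11%) lower. In the core, 4096 of 14390 (28.5%) were called higher and 892 (6.2%) lower. With TMM factors, a scaling that centres most genes, 60.8% of the calls in all gated cells were higher in place of 73.0%, and 62.3% of those in the core in place of 82.1%. That scaling moved the core's log2 ratios by -0.43, with their median at 0.43 before it, so a log2 ratio of 0.43 stands for the middle of all genes. Of the core's higher genes, 33.6% were at least as high in the core as in the other cells of the 90-day library.

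The largest increases in all gated cells were genes of spermatids. TNP1, a transition protein that replaces histones, stood at 0.948, 0.537, 0.581 and 1766 CPM in the gated cells at 7, 30, 60 and 90 days and at 1546 CPM in the cells outside the gate at 90 days. TNP2, PRM1, HMGB4, PRM2, IQCF1, IQCF5, DNAJB8, LLCFC1, TPPP2, GSG1 and CCIN made up the rest of the first 12, all but absent at 7 days and above, but within 1.5 times of, their level in the cells outside the gate at 90 days. In the core, 6 of the first 12 were genes of spermatids as well (ODF1, OAZ3, SPATA3, ACTRT3, ACTL9 and TEX33). A level at least that of the other cells was a condition for naming these genes. TNP2 stood at 21267 CPM in the 12 cells of subgroup 9. In the core it stood at 672 CPM, against 989 CPM in the cells outside the core, and PRM2 at 445 against 733 CPM. For these reasons no level of stromal cells is read from the genes of spermatids. Increases are therefore named below only for core genes with at least 50 CPM that were at least 3 times as high as in the other cells of the 90-day library, a rule added after the data were seen.

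Of 1329 core genes at least 3 times as high as in the other cells, 429 were called higher than at 7 days, 152 of them with at least 50 CPM. Over all core genes 28.5% were called higher. The rule picks genes that are high at 90 days, which favours increases, so these counts are a description. NPTX1 (chr12:2036727-2046202 of Sscrofa11.1, protein coding) came first, which is a description, since it is a marker given with the gate. It stood at 0.286, 5.46, 8.17 and 374 CPM in the core at 7, 30, 60 and 90 days. It had 3 counts at 7 and 1900 at 90 days, for a log2 ratio of 10.35 (8.80 to 12.63). It was near 0 in the 3 younger libraries and high in the oldest. The cells outside the core had 42.3 CPM of it at 90 days. MPZL2, an adhesion protein (chr9:45566365-45578168 of Sscrofa11.1, protein coding), stood at 0, 1.09, 0.817 and 76.5 CPM, with no count at 7 days, and was at least 267-fold higher at 90 days against a floor of 3 counts over the 7-day core. The interval of its log2 ratio, which takes the counting error of both ages, has a lower bound of 7.76. ITM2A, a membrane protein, stood at 2.96, 2.84, 8.50 and 136 CPM (log2 ratio 5.52, 5.0 to 6.09) and GALR1, a receptor of the peptide galanin, at 1.43, 3.06, 5.07 and 58.8 CPM (log2 ratio 5.36, 4.62 to 6.22). These 4 genes were high at 90 days alone. In the cells outside the core the log2 ratio to 7 days was 5.4 for NPTX1, 4.47 for MPZL2, 0.10 for ITM2A and 1.76 for GALR1.

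Other genes were above their 7-day level before 90 days. LIMS2, an adaptor at integrin contacts, stood at 2.38, 22.1, 42.7 and 269 CPM in the core at 7, 30, 60 and 90 days, which is a log2 ratio to 7 days of 6.82 (6.25 to 7.45). WFIKKN2 stood at 6.68, 10.8, 38.6 and 150.0 CPM (log2 ratio 4.49, 4.14 to 4.86), PPL, periplakin, at 0.0954, 5.79, 8.66 and 70.8 CPM (log2 ratio 9.54, 7.05 to 14.84) and KRT14, a basal keratin, at 0.763, 6.44, 15.9 and 86.5 CPM (log2 ratio 6.83, 5.83 to 8.05). Each was higher at 90 days than at any younger age. TRIM72 (0.858, 1.2, 44.5 and 97.5 CPM), known for membrane repair in muscle, PTGFR (1.81, 23.3, 22.9 and 76.1 CPM), the receptor of prostaglandin F2α, XG (3.34, 16.9, 5.23 and 91.8 CPM), EFEMP1 (2.19, 34.4, 27.1 and 59.4 CPM), a fibulin, NPDC1 (5.15, 52.1, 54.9 and 114 CPM), CCN3 (4.67, 44.9, 28.1 and 97.7 CPM), a matricellular protein, and AHNAK (2.96, 19.2, 22.1 and 65.7 CPM), a giant scaffold protein, completed the first 15. TRIM72 was near 0 to 30 days and high from 60 days in the core, and stood at 1.73, 1.95, 24.3 and 20.2 CPM outside it. In the cells outside the core the log2 ratio to 7 days was 3.54 for TRIM72, 2.99 for WFIKKN2, 2.57 for AHNAK and 2.04 for LIMS2. It was 1.90 for PTGFR, 1.49 for PPL, 1.30 for CCN3, 1.24 for EFEMP1, 0.57 for NPDC1, 0.35 for XG and 0.23 for KRT14. XG, CCN3 and EFEMP1 were lower at 60 than at 30 days, and PTGFR did not rise between them.

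Among decreases from 7 days, 257 of 1014 genes at least 3 times as high in the 7-day core as in the other cells of that library were called. Over all core genes 6.2% were called lower. Here the rule picks genes that are high at 7 days, which favours decreases, so the count is a description. IGFBP2, an IGF binding protein (chr15:118822092-118850985 of Sscrofa11.1, protein coding), stood at 328, 175, 136 and 19.5 CPM in the core at 7, 30, 60 and 90 days, which is a log2 ratio to 7 days of -4.08 (-4.38 to -3.79). It fell at every step. NES, nestin, a filament protein of progenitor cells, stood at 234, 119, 88.6 and 18.7 CPM (log2 ratio -3.64, -3.96 to -3.35), and DPT, dermatopontin, at 64.8, 45.8, 53.1 and 3.93 CPM (log2 ratio -4.04, -4.76 to -3.40). DPT was nearly gone at 90 days, with a level like that of the other cells (3.57 CPM). CEBPD, a transcription factor of the acute response, stood at 172, 151, 48.7 and 14.2 CPM, ANGPTL4, an inhibitor of lipoprotein lipase, at 1088, 961, 309 and 140.2 CPM and CXCL10, a chemokine induced by interferon, at 610.3, 167, 330.4 and 75.7 CPM. MSC, a transcription factor (171, 85, 67.7 and 21.2 CPM), CYP7B1, an oxysterol hydroxylase (240.0, 133, 137 and 37.8 CPM), GABRG1, a GABA receptor subunit (86.7, 87.4, 37.8 and 15.5 CPM), ENPP6 (88.1, 38.4, 25.5 and 6.29 CPM), COL25A1 (71.9, 26.2, 18.8 and 5.11 CPM) and P3H2, which modifies collagen (115, 50.3, 48.9 and 13.6 CPM), were all lowest at 90 days. Of the 15 genes with the largest decreases, all but P3H2 also fell in the cells outside the core, where the log2 ratio to 7 days was -2.80 for IGFBP2, -1.84 for NES, -3.53 for CEBPD, -4.86 for CXCL10, -2.11 for ANGPTL4, -2.32 for MSC and -1.96 for CYP7B1. Outside the core the ratio was only -0.39 for DPT, -1.22 for ENPP6 and -1.27 for COL25A1, against -4.04, -3.81 and -3.81 in the core. Apart from P3H2, these decreases thus had the same direction in the rest of the library. Their extent there differed, from larger than in the core for CXCL10 to slight for DPT. In all gated cells IGFBP2 stood at 261, 144, 100.5 and 17.0 CPM and NES at 176, 95.6, 61.5 and 17.8 CPM, with the same order of ages.

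**Figure D4:**
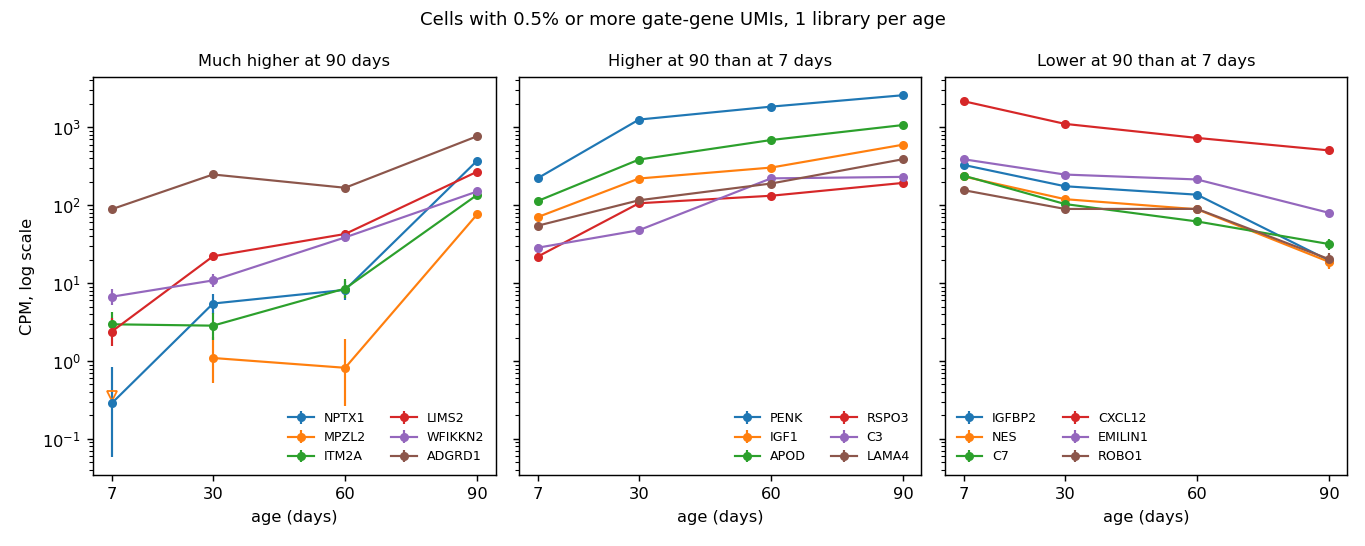
Points give CPM (log scale) in the core cells of each library at 7, 30, 60 and 90 days, with exact 95% Poisson intervals as bars, and an open triangle gives the upper bound where no count was seen (MPZL2 at 7 days). NPTX1, MPZL2 and ITM2A stay below 10 CPM to 60 days and reach 374, 76.5 and 136 CPM at 90 days, while IGFBP2, NES and ROBO1 drop below 25 CPM.

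Lists of genes of known role are given next, each as the members with at least 25 counts over both ages, called measured, against the 28.5% of all core genes called higher and 6.2% lower. Few collagen genes were called. Of 12 listed beside the gate genes, 11 were measured, 1 was higher in the core at 90 than at 7 days (COL5A1, 328, 375, 484 and 692 CPM) and 2 were lower, with a median log2 ratio of 0.04 against 0.43 for all genes. COL15A1 stood at 723, 696, 789 and 187 CPM at 7, 30, 60 and 90 days and COL6A3 at 269.6, 156, 214 and 115 CPM, both lowest at 90 days. COL3A1 (5945, 4823, 4294 and 4977 CPM) and COL1A2 (4645, 6109, 6325 and 8615 CPM) were not called. Of 8 small proteoglycans measured (10 listed, versican among them), 1 was higher (OMD, osteomodulin, 77.2, 175, 181 and 347 CPM) and 2 lower (FMOD, 119, 62.1, 92.4 and 50.9 CPM, and PRELP, 51.4, 48.1, 62.8 and 23.4 CPM), with LUM at 1749.6, 1391, 1848 and 1140.4 CPM. Of 12 basement membrane genes measured (13 listed), LAMA4, a laminin chain (54.5, 116, 189.6 and 389 CPM), and HSPG2, perlecan (282, 315, 475 and 789 CPM), were higher and none lower. SPARC, a collagen-binding protein (2006, 1872, 2016 and 2522 CPM), was the most abundant of that list and was not called.

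Elastic fibre genes, all 16 of them measured, were called higher for 6 and lower for 2 in the core, and higher for 3 and lower for 3 with TMM scaling, which moved their median from 0.75 to 0.32. MFAP4 stood at 116, 144, 235 and 473 CPM and LTBP2, which binds fibrillin, at 19.8, 10.8, 13.1 and 50.1 CPM at the 4 ages, and both were highest at 90 days. ELN, elastin, stood at only 2.86, 3.49, 4.90 and 16.9 CPM, and FBN1, the main fibrillin, at an even 822, 874, 801 and 823 CPM. EMILIN1, a protein at the surface of elastic fibres, fell from step to step at 388, 247, 214 and 79.6 CPM, which is a log2 ratio to 7 days of -2.29 (-2.44 to -2.14). Among 10 genes of matrix turnover measured (14 listed), TIMP3, an inhibitor of metalloproteases held in the matrix, stood at 126, 302, 500.4 and 884 CPM and was higher, as were MMP14 and ADAMTS1 by close to 2 times. TIMP1, a soluble inhibitor (520.2, 434, 411 and 241 CPM), and SERPINF1 (476, 237, 142 and 151 CPM) were lower.

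Genes of adventitial fibroblasts were called higher for 4 of 9 measured (12 listed) and lower for 1. PI16 stood at 41.8, 54.0, 147 and 232 CPM in the core at 7, 30, 60 and 90 days, CD248 at 50.3, 78.7, 60.5 and 146 CPM and CLEC3B at 16.8, 53.4, 22.4 and 78.7 CPM. All 3 were highest at 90 days, although CLEC3B stood at 125 CPM in the other cells, above the core. The fourth was PROCR and the lower gene DPP4. Among 10 genes of interstitial progenitors measured (12 listed), NES and NR2F1 (174, 84.3, 212 and 86.7 CPM) were lower and WT1 (29.1, 43.2, 52.3 and 62.1 CPM), which is higher in other cells (76.1 CPM), was called higher. PDGFRA, a growth factor receptor that marks stromal progenitors in mouse testis, stood at 277, 410.1, 656 and 509 CPM and NR2F2, a nuclear receptor of interstitial precursors, at 421, 521, 883 and 728 CPM, and neither was called. Of 9 transcription factors measured (16 listed), PRRX1, OSR1 and MEOX2 were higher and HIC1 lower, but 1 was higher and 2 lower with TMM scaling, with MEOX2 at 14.8, 23.3, 27.5 and 58.6 CPM. KLF4 (257, 306, 924 and 511 CPM), the most abundant of them, was highest at 60 days.

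IGF1 stood at 70.2, 219.9, 304 and 598 CPM in the core at 7, 30, 60 and 90 days, which is a log2 ratio to 7 days of 3.09 (2.97 to 3.21), and at 25 CPM in the other cells at 90 days. It rose at every step while IGFBP2 fell. Of the other 5 IGF genes measured (9 listed in all), IGFBP5 was called lower (488, 173, 268 and 243 CPM), IGFBP7 was highest at 60 days (3347, 4577, 5026 and 2168 CPM), and IGFBP4, IGF1R and IGF2R were not called. PENK stood at 222, 1255, 1840.2 and 2579 CPM, a log2 ratio of 3.54 (3.48 to 3.60), and APOD, a lipid carrier, at 113, 385, 686 and 1069 CPM, a ratio of 3.24 (3.15 to 3.33). Both rose at every step. Among 7 lipid genes measured (10 listed) LPL, lipoprotein lipase, was also higher (2.67, 8.96, 26.5 and 68.6 CPM), and CD36 and PLIN2 (128, 103, 80.1 and 42.1 CPM), of fat uptake and storage, were lower.

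WNT genes were called higher for 6 of 11 measured in the core (15 listed) and lower for 1, with a median log2 ratio of 1.39. With TMM scaling 5 were higher and 3 lower at a median of 0.96, and in all gated cells 5 of 12 were higher and 1 lower. RSPO3 stood at 21.8, 106, 132 and 193 CPM, SFRP1 at 434, 576, 821 and 1141 CPM and WNT2B, a ligand, at 49.0, 79.7, 126 and 140.2 CPM at 7, 30, 60 and 90 days. All 3 were above the other cells of the library, at 3.80, 35.2 and 4.65 CPM. WNT6, FRZB and SFRP2 were the other 3 called higher, and AXIN2, a target of the pathway, was lower. SFRP4 stood at 370.2, 444, 399.7 and 214 CPM, lowest at 90 days, and was called lower against 30 days only. Hedgehog genes were higher for 3 of 9 measured (11 listed): HHIP (381, 480.3, 863 and 951 CPM), BOC and CDON, both of them co-receptors, and with TMM scaling for 1 of 9, against the 28.5% of all core genes called higher. PTCH1, the receptor and a target of hedgehog, stood at 178, 275, 533 and 252 CPM, GLI1, another target, at 35.1, 47.3, 73.4 and 62.9 CPM, and neither was called against 7 days.

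Among 17 measured genes (21 listed) of TGF-beta and BMP signalling, BMP4 (11.8, 16.7, 19.3 and 37.8 CPM) and FST, follistatin, were higher, and TGFBR3, BMP2, INHBA and ID3 lower. INHBA, the activin subunit, stood at 187, 188, 165 and 85.7 CPM at the 4 ages, lowest at 90 days, and ID3, a target of BMP, at 148, 138, 82.4 and 68.2 CPM. Of 9 Notch genes measured (11 listed) HES1, a target, was higher (132, 210.4, 164 and 310.3 CPM), and HEYL stood at 67.4, 70.3, 196 and 85.5 CPM with its peak at 60 days. Guidance genes, all 14 of them measured, were called higher for 8 and lower for 2, and with TMM scaling higher for 6 and lower for 4. NPTX1, a marker given with the gate, is in this list and among the genes called higher, so its call is a description. Next to NPTX1, SEMA3E stood at 3.62, 16.9, 26.5 and 43.1 CPM and SLIT2, a ligand of ROBO receptors, at 8.39, 54.7, 63.4 and 57.8 CPM. ROBO1 stood at 156, 89.4, 89.6 and 20.3 CPM and ROBO2 at 131, 66.7, 112 and 30.5 CPM, so these receptors were lower at 90 days while their ligand was higher than at 7 days.

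Complement genes were called higher for 6 of 8 measured in the core (12 listed) and lower for 1, with a median log2 ratio of 1.53. With TMM scaling 4 were higher and 1 lower at a median of 1.10, and in all gated cells 5 of 8 were higher and 1 lower. C3, the central component, stood at 28.4, 47.7, 221 and 231 CPM in the core at 7, 30, 60 and 90 days, CFI, a protease that inactivates it, at 10.9, 16.1, 67.0 and 97.1 CPM and CFD, factor D, at 63.6, 191, 332 and 211 CPM. C3 and CFI were highest at 90 days and CFD at 60 days. C7 ran the other way at 239, 103, 61.8 and 31.7 CPM, and SERPING1, the inhibitor of C1, was even at 827, 868, 909.7 and 859 CPM. CLU, clusterin, stood at 969.8, 2022, 2745 and 2429 CPM, below the 7319 CPM of the other cells, where Sertoli cells express it. C1QTNF1 (34.7, 84.8, 95.6 and 299 CPM) and C1QTNF2, secreted relatives of a complement subunit, were the other members called higher.

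Of 10 chemokines and cytokines measured in the core (12 listed), IL33 was higher and 4 were lower, and in all gated cells 8 of 12 were lower. CXCL12, which holds stem and immune cells in place through its receptor CXCR4, stood at 2161, 1106, 729.7 and 505 CPM at the 4 ages, which is a log2 ratio to 7 days of -2.10 (-2.16 to -2.04). It fell at every step. CCL2, which draws monocytes, stood at 839, 415, 611 and 245 CPM, and CCL19 and CCL21 were lower too. Interferon response genes were lower than at 7 days for 8 of 14 measured (15 listed) and higher for none, with a median log2 ratio of -1.03. IFI6 stood at 2491, 1493, 3539 and 953 CPM and IFITM3 at 846, 413, 462 and 247 CPM. IFI6 had its peak at 60 days and IFITM3 its peak at 7 days. Against 30 days the same list had 3 higher genes of 13 measured (ISG15, RSAD2 and IRF7) and 0 lower. That share is near the 22.9% of all core genes called higher, and with TMM scaling 1 was higher and 2 lower. No direction of the list is therefore read against 30 days.

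Immediate early genes, known for a fast response to growth factors, stress and cell dissociation, were lower for 6 of 13 measured (16 listed) and higher for DUSP1 alone against 7 days, and lower for 9 of 14 with none higher against 60 days. FOS stood at 5594, 6044, 6821 and 2389 CPM in the core at the 4 ages, SOCS3, an inhibitor of cytokine signals, at 487, 493, 499.7 and 79.8 CPM and ATF3, a stress factor, at 219, 227, 469.6 and 56.8 CPM. All 3 were lowest at 90 days. In the 90-day library FOS stood at 1142 CPM in the cells outside the core and 2635 CPM in the endothelial gate. Heat shock genes gave no call among 11 measured (12 listed) against any age in the core, with HSP90AA1 at 1951, 1804, 1642 and 1654 CPM, though 3 were lower against 7 days with TMM scaling.

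Of 12 retinoid genes measured (14 listed) 4 were higher and 2 lower in the core. ALDH1A2, which makes retinoic acid, stood at 43.8, 82.0, 54.8 and 228 CPM at 7, 30, 60 and 90 days, against 38.3 CPM in the other cells at 90 days, and was highest at 90 days. ALDH1A3, which does the same, was highest at 7 days at 539, 343, 227 and 228 CPM. ALDH1A1 (3.43, 12.7, 5.72 and 107 CPM) and CRABP1 (3.53, 43.0, 81.6 and 288 CPM) were higher at 90 days but more so in the other cells, at 292 and 613 CPM. CYP26B1 stood at 9.82, 90.4, 177 and 32.1 CPM, highest at 60 days, and was high in subgroup 3 and the myoid gate at 90 days. Contractile genes, all 10 of them measured, were higher for 1 and lower for 4. DES, desmin, stood at 97.5, 81.6, 40.9 and 20.1 CPM, CALD1, caldesmon, at 1298, 1003, 888 and 449.6 CPM and TAGLN at 399, 344, 324 and 216 CPM, the last without a call, and the gate's limit on ACTA2 and MYH11 held at all ages.

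Steroid-making genes were low in these cells at 90 days, where 5 of 9 measured (10 listed) were called lower than at 7 days and 1 higher (SRD5A1). STAR, which brings cholesterol into mitochondria, stood at 76.1, 26.5, 8.99 and 12 CPM, CYP11A1, the first enzyme of the pathway, at 23.6, 24.8, 9.64 and 11.2 CPM and SCARB1, a lipoprotein receptor, at 53.2, 29.6, 35.5 and 11.6 CPM in the core at 7, 30, 60 and 90 days. In the Leydig gate of the 90-day library they stood at 814, 1699.6 and 204 CPM. INHA, the inhibin subunit of Sertoli and Leydig cells, stood at 418, 388, 373 and 80.2 CPM, and the Leydig list as a whole at 799, 619, 269 and 250.1 CPM. The part of RNA from other cells in these values was not tested. Of 10 hormone receptors measured (12 listed), NR3C2 was higher and LHCGR and PRLR lower. Cell cycle genes were lower than at 7 days for 3 of 13 measured, 16 listed (TOP2A at 279.7, 151, 59.8 and 128 CPM, CENPF and UBE2C), and TOP2A stood at 288 CPM in the cells outside the core, above its level in it. Of 11 antioxidant genes measured (12 listed) MT1A, a metallothionein, was higher at 9.92, 64.2, 40.9 and 101 CPM, below the other cells' 189.7 CPM, and GPX1 was lower at 209, 74.9, 67.0 and 40.1 CPM. With TMM scaling lower calls against 7 days rose to 7 each of the cell cycle, contractile, steroid-making and immediate early genes, 11 of the interferon genes, 6 of the chemokines and 4 of the small proteoglycans, with none higher in these lists but 1 chemokine and 1 proteoglycan. With the same scaling the medians of the collagen, basement membrane, matrix turnover, progenitor, IGF, TGF-beta and BMP, Notch, retinoid, hormone receptor and antioxidant lists turned from above 0 to below it, so no direction is read from those lists, nor from the transcription factors.

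**Figure D5:**
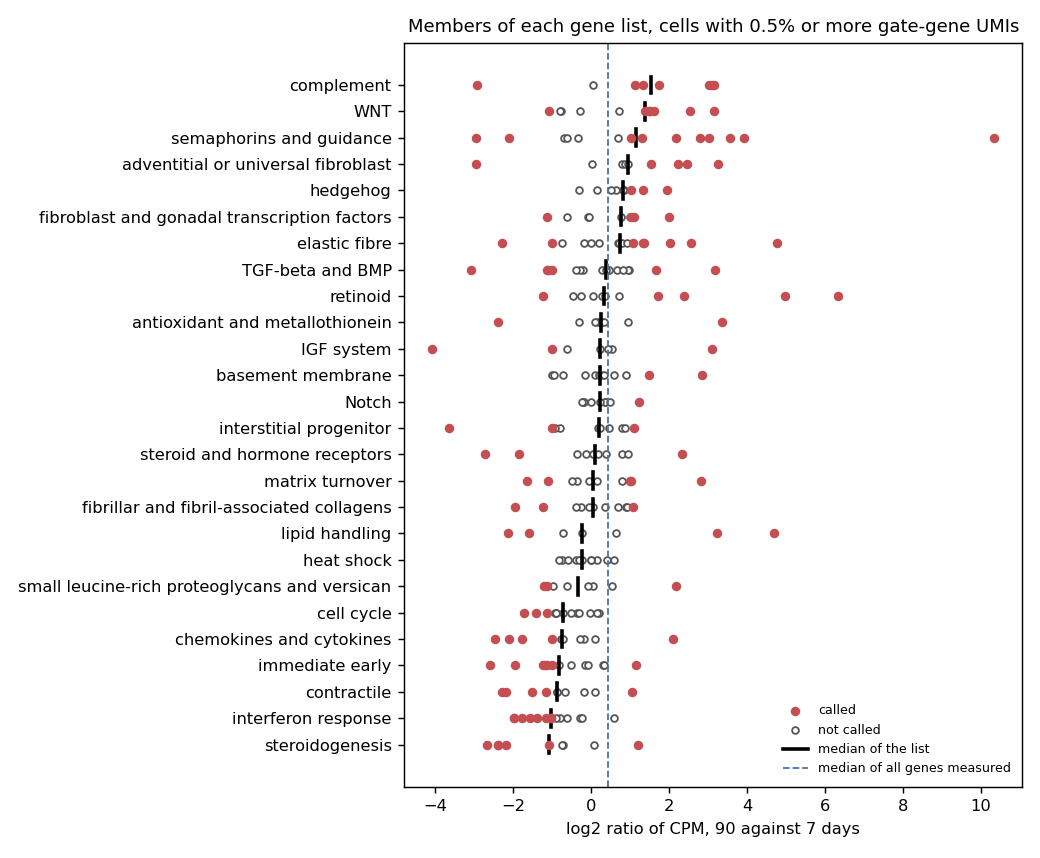
Points give the log2 CPM ratio of 90 against 7 days in the core for each measured member of 26 gene lists, filled where called, black bars the list medians and the dashed line the median of all genes measured (0.43). Complement, WNT and guidance genes lie to the right and interferon, contractile and steroid-making genes to the left. The guidance list includes NPTX1, a marker given with the gate. RBP4 of the retinoid list, with no count at 90 days, is not drawn.

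Against 30 days, 3443 of 17065 genes (20.2%) were called higher in all gated cells and 1429 (8.37%) lower, and in the core 3302 of 14388 (22.9%) higher and 674 (4.68%) lower. In the core 83.0% of the calls were higher, and 67.4% with TMM scaling. NPTX1, TRIM72, MPZL2, ITM2A and GALR1 had the largest increases among core genes at least 3 times as high as in other cells, with log2 ratios of 6.10 (5.69 to 6.53) for NPTX1 and 5.58 (5.02 to 6.21) for ITM2A. GALNT18, which starts sugar chains on proteins, joined the first 10 at 8.01, 12.6, 24.2 and 98.1 CPM. IGFBP2, ANGPTL4, GABRG1 and MSC had the largest decreases, with ANGPTL4 at -2.78 (-2.89 to -2.67) on the log2 scale. THSD7A (168, 146, 56.4 and 40.5 CPM), SPARCL1 (406, 364, 238 and 111 CPM) and PPP1R14A (172, 126, 137 and 40.7 CPM) were in the first 10 as well. Elastic fibre genes were higher for 4 of 16 (ELN, MFAP4, FBLN5 and LTBP2) and lower for EMILIN1, a share near the 22.9% of all core genes. Complement genes were higher for 3 of 8 (C3, CFI and C1QTNF1) and lower for C7. WNT genes were higher for 1 of 12 (WNT11) and lower for SFRP4, and with TMM scaling higher for 0 and lower for 2. CEBPD and GADD45A, a stress response gene (222, 311, 182 and 57.6 CPM), were among the first 6 decreases in the core where a level at least that of the other cells, not 3 times it, was asked.

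Against 60 days, 2725 of 16634 genes (16.4%) were called higher in all gated cells and 1339 (8.05%) lower, and in the core 2327 of 14251 (16.3%) higher and 732 (5.14%) lower. Only 19.8% of the core's higher genes were at least as high in the core as in the other cells at 90 days. MPZL2 and NPTX1 came first again, with log2 ratios of 6.55 (5.31 to 8.18) and 5.51 (5.11 to 5.95), followed by XG, ITM2A, GALR1, PPL, LIMS2 and KRT14. ADGRD1, an adhesion receptor that stood at 88.7, 248, 167 and 768 CPM in the core at the 4 ages, and ECM1, a matrix protein at 53.3, 70.0, 45.8 and 209.6 CPM, also reached the first 10. Both were at more than 4 times their 60-day level at 90 days. Decreases were led by LRRN1 (39.0, 37.9, 92.4 and 3.74 CPM), HAS1, a hyaluronan synthase (17.5, 41.7, 64.2 and 4.13 CPM), and DPT, and COL15A1 was among them with a log2 ratio of -2.08 (-2.18 to -1.97). LRRN3, LGI1, PRDM1, SOCS3, CXCL10 and IGFBP2 were the others of the first 10. PTCH1 was lower than at 60 days (log2 ratio -1.08, -1.17 to -0.99), as were HEYL (log2 ratio -1.2, -1.36 to -1.04) and IGFBP7 (log2 ratio -1.21, -1.24 to -1.18). The 60-day core held 28.0% doublet calls against 4.77% at 90 days, and AZU1, a granule gene of neutrophils, stood at 0.0593, 0.0671, 53.9 and 0.224 CPM in all gated cells at the 4 ages, high at 60 days alone. ZFP36, which speeds mRNA decay (346, 363, 723 and 136 CPM), and HOOK2 (8.06, 10.9, 97.5 and 17.7 CPM) were also among the first 6 decreases from 60 days in all gated cells.

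The 3 comparisons share the 90-day library, so they are not separate evidence. In the core 1953 of 13768 genes measured in all 3 were higher at 90 days than at each younger age and 254 were lower, and 354 of the 1953 were at least as high as in the other cells of the 90-day library.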

How the data were processed

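The values were raw UMI counts per gene and barcode that the authors deposited as 1 filtered matrix per library, made with Cell Ranger 5.0.1 per the file headers. The submitters' processing notes also name bcl2fastq, Scanpy 1.7.1 and the build Sscrofa11.1, and the labels' protocols name droplet 3′ libraries from suspensions of whole testis. The matrices held 31908 features, 16508 of them with a symbol, and 825 more were named from a reference table of gene names. Gene positions came from the RefSeq table of the same build.

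From these counts the cell filter and gate described above were applied, counts were summed over the cells of each age, and CPM and their ratios were computed with exact 95% Poisson and conditional binomial intervals (SciPy 1.17.1, NumPy 2.4.6, pandas 2.3.3). A gene was called at a ratio of 2 or more with an interval without 1 and at least 25 counts. With 1 library per age there was no test between ages. A fold against 0 counts used a floor of 3 counts over the summed cells. Intervals and floors cover counting error only. Subgroups were found with Scanpy 1.11.5 (2000 variable genes, 30 components, 15 neighbours, Leiden at resolution 0.5 through igraph 0.11.9). Scrublet called doublets per library at an expected 0.8% per 1000 barcodes, and they were kept except in 1 alternative. TMM factors came from edgeR 4.0.16 under R 4.3.3, used for scaling alone. The code that makes calls was tested on simulated data.

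The gated cells, markers and gene lists were chosen with earlier results of these data known. Against 7 days the text names the 12 largest changes each way, and against 30 and 60 days the 6 largest, ordered by whichever interval bound lay closer to equality, among genes with a symbol, at least 50 CPM and a level in the gated cells at least that of the other cells. Genes named in the core are the 15 and 10 largest changes at 3 times the other cells' level. For subgroups up to 6 genes with a symbol are named as leading, by the largest ratio to the other gated cells at 100 CPM or more. For lists the most abundant member, called members and members of described role are named. Of 445 listed genes 38 had no feature.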

Additional observations from a re-analysis of the deposited data

How the results depend on the processing

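No called ratio of a named gene changed sign, while the medians of 10 lists did with TMM scaling, and 44 of 65 planned and 9 of 19 added recalculations of the gate's share and of the called counts stayed within their limits. The share of gated cells at 90 days, 19.5%, was 16.0% with at least 4 of the 8 genes required, 15.6% in cells thinned to 1000 UMIs, 18.6% without called doublets, 22.7% with the stricter cell filter (1000 genes, 10% mitochondrial), 16.6% with cells that carried other cell types' markers set aside and 16.5% in the core. Genes higher than at 7 days, 4221, were 2748 thinned, 2718 with at least 100 counts and 1656 in the core among genes at least as high as in the other cells. Genes lower than at 7 days, 1564, were 579 thinned, 944 with other cell types set aside, 928 with 100 counts, 892 in the core and 623 in the core among genes at least as high as elsewhere. Against 30 days, 3443 higher genes were 2153 with 100 counts and 1160 in that last setting. The 1429 lower genes were 870 with 4 of 8 genes, 486 thinned, 775 with other types set aside, 735 with 100 counts, 674 in the core and 432 in the last setting. Against 60 days, 2725 higher genes were 1677 thinned, 1803 with 100 counts and 759 in the last setting, and 1339 lower genes were 877, 589, 771, 693, 732 and 460 in the same order as against 30 days. The cause of these changes was not tested, other than that fewer cells, counts or genes enter. With TMM scaling in all gated cells 3291 genes were higher and 2121 lower than at 7 days, 2948 and 1717 than at 30 days and 2552 and 1509 than at 60 days. Of the ratios of named genes, 178 of 982 planned and 118 of 260 added recalculations moved past their limit, and of the list counts 296 of 1560 and 163 of 468. The core and the rule on other cells were chosen after seeing the data. No paired analysis was possible because each age was 1 library, with no repeat of any age. Depth limits what is seen: genes under 25 counts over both ages were not compared, and the 60-day library had 4498 barcodes under 1000 UMIs against 2606 at 90 days.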

Other observations

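The genes that led the subgroups of the 90-day cells had unlike courses over the libraries. In the core, KRT18 of subgroup 1 stood at 0.286, 1.42, 1.31 and 46.2 CPM at the ages of 7, 30, 60 and 90 days, and PDPN, podoplanin, at 6.58, 36.5, 35.1 and 92.2 CPM, both highest at 90 days. KRT8, the partner of KRT18, was already at its highest at 60 days, with 23.8, 13.8, 91.9 and 72.6 CPM, and so was CCL11, a chemokine that draws eosinophils, with 26.8, 36.2, 102 and 67.8 CPM. In the cells outside the core KRT8 stood at 117, 31.8, 191 and 17.2 CPM, above the core at 7, 30 and 60 days, so no stromal course is read from it. Of the leading genes of subgroup 2, PENK, SLIT2, RSPO3, C3 and CFD were higher than at 7 days, as given above, while LHX9 stood at 307, 413, 468 and 424 CPM and TFPI2, a protease inhibitor, at 329, 377, 365 and 308 CPM, neither of them called against any age. SPON1 was lowest at 90 days, at 205, 213, 246 and 107 CPM. Of subgroup 3, PKDCC, a secreted kinase (463, 296, 258 and 152 CPM), fell from 7 days on, and GALP, a galanin-like peptide (370.1, 66.3, 67.7 and 87.5 CPM), was high at 7 days alone. FN1 of subgroup 5 stood at 105, 319.7, 55.4 and 185 CPM, highest at 30 days.

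Among genes with the largest ratios to the other cells at 90 days, LGALS3, galectin 3 (60.0, 131, 205 and 291 CPM), and ISLR, a marker of fibroblasts (121, 182, 196 and 362 CPM), rose at each age and were called higher than at 7 days. PI15 (245, 530.5, 932 and 428 CPM) and NPR3, a clearance receptor of natriuretic peptides (277, 216, 624 and 469 CPM), were highest at 60 days. VIM, vimentin (5044, 4305, 3426 and 2785 CPM), and NRK (380.1, 319, 248 and 199 CPM) were highest at 7 days and lowest at 90 days, by less than the fold that makes a call.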
